A study of Mus musculus with 31 samples.

Results

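The cytochrome P450 enzymes of families 1, 2 and 3 were followed in mouse liver through the microarray probes that carry their gene names. A probe was a member when its gene name in the scanner files began with Cyp, followed by a family digit of 1, 2 or 3, a subfamily letter and a number. The rule took 69 of the 36057 probes of the deposited table, which name 56 genes of 23847, and the 8 subfamilies 1a, 2a, 2b, 2c, 2d, 2e, 2j and 3a were compared. The array itself carries 80 such probes for 60 genes. Of the 69 probes, 57 were in the table because their spots passed the detection flags on at least 26 arrays, and 12, which passed on fewer, because they did so on at least 6 arrays of 1 or more groups. For 3 of these, Cyp2b13, Cyp2b19 and the brighter Cyp2j9 probe, it was 1 group. The 11 probes left out were dim, and Cyp2c39, Cyp2b23, Cyp3a44 and Cyp2j11 had no probe in the table.

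RNA from livers of male mice (C57BL6/J) was measured on 31 one-colour Agilent arrays, 1 array per animal, after 24 h of fasting and 18 h of refeeding with chow and 20% glucose in the drinking water. ChREBP is a transcription factor that responds to glucose and is encoded by Mlxipl, and the comparisons ask which liver genes depend on its short form ChREBPβ and which on ChREBP as a whole. ChREBPβ-deficient mice (ChREBPbeta_KO, 8 arrays) lack Mlxipl exon 1b after CRISPR/Cas9 editing, and total ChREBP-KO mice (ChREBPtotal_KO, 7 arrays) are Mlxipl-null and lack ChREBPα and ChREBPβ. Each line had its own wild-type (WT) littermates (ChREBPbeta_WT and ChREBPtotal_WT, 8 arrays each). Both deficiencies are present in all tissues, so a change in liver RNA may start elsewhere, and age is not given in the sources used here. The total ChREBP-KO arrays are numbered 1, 2 and 4 to 8, and number 3 was not analysed here.

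P450 enzymes of these families are heme proteins of the hepatocyte endoplasmic reticulum that oxidise drugs, pollutants, steroids and fatty acids with electrons from P450 oxidoreductase. Their genes lie in clusters of close copies, and many are switched on by nuclear receptors that sense foreign compounds, such as CAR (Nr1i3) and PXR (Nr1i2), or by the aryl hydrocarbon receptor (Ahr). Many of them are more active around the central vein than near the portal tract, and several differ between the sexes through the pattern of growth hormone secretion.

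Signals are given as log2 intensity after quantile normalisation, and a difference between groups is on the same log2 scale with its standard error (SE). A probe was called when its Benjamini-Hochberg adjusted p, over all 36059 probes tested with limma, was below 0.05. Between 31502 and 35965 probes passed the detection flags on an array, and between 62 and 67 of the 69 member probes did. No kept spot was saturated. The arrays came from 15 slides with at most 3 arrays each and were scanned on 2 days, with 15 and 16 arrays, and every group was present on both days. In bulk liver RNA, fewer cells that express a gene and less RNA per cell cannot be told apart. Labels of 11 member probes list transcripts of more than 1 gene, so their values may belong to a neighbour of the same subfamily.

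Mlxipl was read first as a check of the labels. Its brightest probe, at chr5:135613705-135613764 in build mm9, is printed here because it carries that check.
Mlxipl: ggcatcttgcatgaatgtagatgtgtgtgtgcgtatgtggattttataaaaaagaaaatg
This probe ran from 13.89 over a median of 14.11 to 14.30 in ChREBPtotal_KO and from 15.14 over 15.25 to 15.48 in ChREBPtotal_WT. In the other line it ran from 14.40 over 14.64 to 14.84 in ChREBPbeta_KO and from 14.88 over 15.06 to 15.33 in ChREBPbeta_WT. Both deficient groups lay below their littermates on every array. The difference was -1.16 (SE 0.07, adjusted p = 8.05e-13) with total deficiency and -0.45 (SE 0.07, adjusted p = 0.0152) with ChREBPβ deficiency. A further Mlxipl probe gave -0.59 and -0.46, called with total deficiency and not with ChREBPβ deficiency, and the last one gave -0.05 and -0.06 and was called in neither. Where these probes lie relative to the deleted parts is not given in the sources used here, so they check the labels only in part. Pklr, the liver pyruvate kinase gene and a classic ChREBP target, was added after its values were seen. It was lower with total deficiency (adjusted p = 4.35e-12), between 6.13 and 6.74 in ChREBPtotal_KO and between 9.22 and 11.23 in ChREBPtotal_WT. No size is given, since it was well above background on 4 of 7 total ChREBP-KO arrays. It differed by 0.26 (SE 0.27, adjusted p = 1) with ChREBPβ deficiency.

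The tissue label was checked against 10 hepatocyte markers, all of which were measured. Albumin (Alb) was the brightest at a mean of 18.96, and the summed linear signal of the 10 genes had a median of 2776274 in ChREBPtotal_KO, 2746743 in ChREBPtotal_WT, 2738550 in ChREBPbeta_KO and 2726332 in ChREBPbeta_WT. Transthyretin (Ttr) was the 1 marker called with total deficiency, at 0.17, and none was called with ChREBPβ deficiency.

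Several arrays numbered 2 stood at the end of their group for many P450 probes. Replicate 2 of ChREBPtotal_WT was the lowest of its group for 29 of 69 member probes and the highest for 14. In ChREBPbeta_KO replicate 2 was the lowest for 30 and the highest for 9, and in ChREBPbeta_WT for 17 and 15. ChREBPtotal_WT replicate 2 had the lowest Cyp1a2, Cyp2c29, Cyp2d9 and Cyp2d40 signals of its group, ChREBPbeta_WT replicate 2 the highest Cyp2b10 and the lowest Cyp2d40, and ChREBPbeta_KO replicate 2 the lowest Cyp2d9. With these 3 arrays left out together, a setting chosen after the data were seen, 33 member probes were higher and 6 lower with total deficiency, where 14.8% of all probes were higher and 15% lower. With ChREBPβ deficiency limma gave 0 and 0, against 0% and 0.00555% of all probes. The same setting gave 16 higher and 5 lower for the difference between the deficiencies, against 16 and 3 with all arrays, where 6.98% and 8.06% of all probes were called. Between the WT groups it gave 3 higher and 16 lower, against 6.92% and 7.79% of all probes.

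Among the total ChREBP-KO arrays, replicate 7 had the lowest signal of the group for 28 of 69 member probes, among them those of Cyp1a2, Cyp2b10, Cyp2b9, Cyp2b13, Cyp2c37, Cyp2c50, Cyp2c54, Cyp2e1 and Cyp3a11. Without this array 36 member probes were higher and 6 lower with total deficiency, where 14.1% of all probes were higher and 14.3% lower. For the difference between the deficiencies 23 were higher and 3 lower, where 7.24% and 8.22% of all probes were called.

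With total ChREBP deficiency the P450 probes mostly rose. Of the 69 probes, 35 were higher (50.7%) and 6 lower (8.70%) in ChREBPtotal_KO than in ChREBPtotal_WT, where 14.5% of all probes tested were higher and 14.6% lower. The median difference of the members was 0.37, against 0.01 over all probes. Counted with 1 probe a gene, 30 of 56 genes were higher and 4 lower, against 14.5% and 14.8% of all named genes. Groups that did not overlap on any array and were called were found for 9 P450 genes upward and 1 downward, against 3.28% and 4.42% of all named genes. Among the 40 probes of other P450 families, 16 were higher and 4 lower, with a median of 0.13, and 0 were called with ChREBPβ deficiency.

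The subfamilies differed in how many of their probes rose. All 7 probes of 3a, all 4 of 2a and both probes each of 1a and 2e were higher, with median differences of 0.71, 1.51, 0.97 and 0.86. The probes of Cyp3a11, Cyp3a25, Cyp3a41a and Cyp2a4 list transcripts of further genes of their subfamily. Probes of close copies may thus share signal, and these counts need not be of separate genes. In 2b, 3 of 4 probes were higher, but Cyp2b13 and Cyp2b19 lay near background on most arrays, so no median is given. Of the 18 probes of 2c, 7 were higher (38.9%) and 3 lower (16.7%), at a median of 0.45. Of the 13 of 2d, 5 were higher (38.5%) and 2 lower (15.4%), at 0.17, and both lower probes were of Cyp2d40. Of the 9 probes of 2j, 1 was higher and 1 lower (11.1% each). Over all probes 14.5% were higher and 14.6% lower, so the lower shares of 2c and 2d lay near that of all probes. The medians of 1a, 2a, 2c, 2d, 2e and 3a were positive under each of the 6 other choices of signal, scaling and filter, and that of 2j lay between -0.01 and 0.07. No test of one subfamily against another was made.

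**Figure D1:**
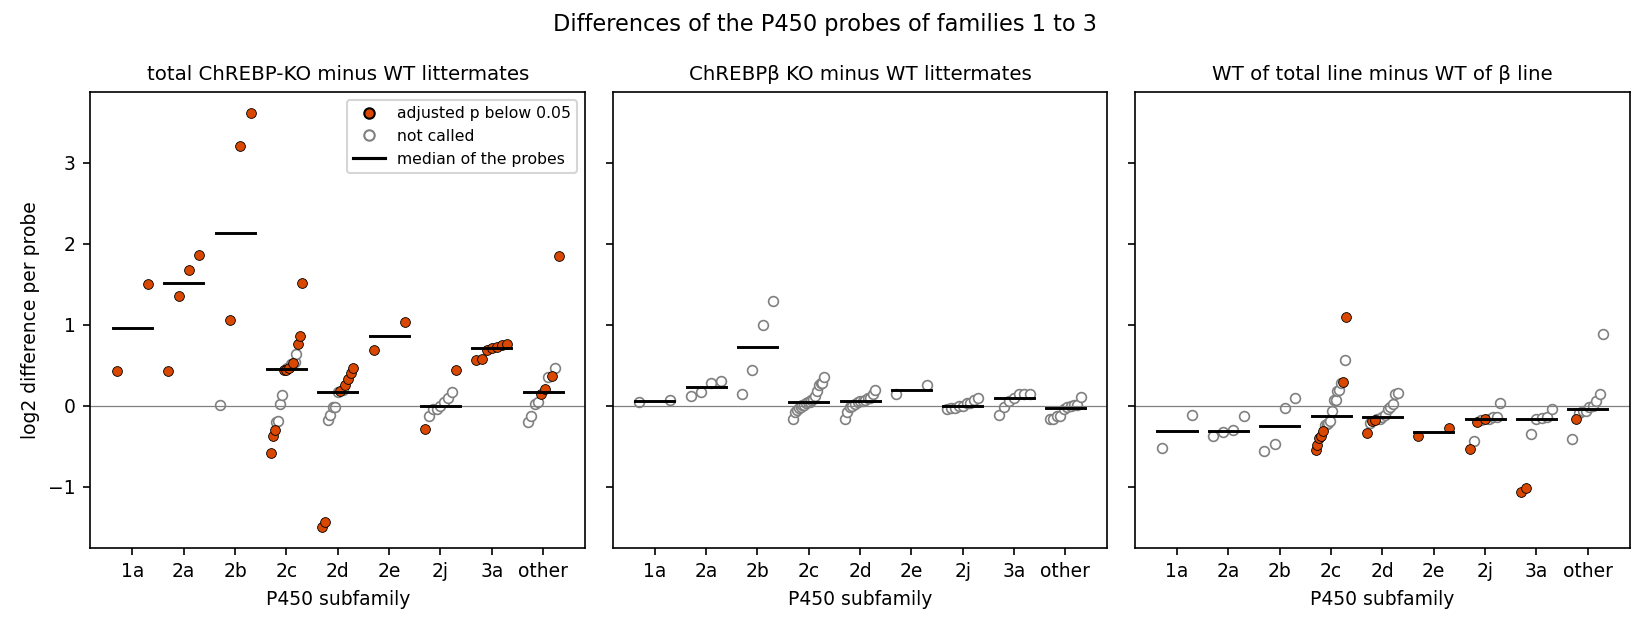
Each point is 1 member probe, placed by subfamily, with the log2 difference on the vertical axis for total deficiency (left), ChREBPβ deficiency (middle) and the 2 WT groups (right); filled points have an adjusted p below 0.05 and black lines are medians of the probes, which in 2b include Cyp2b13 and Cyp2b19 near background. With total deficiency 35 points are called higher and 6 lower, with ChREBPβ deficiency 0.

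Cyp1a2 oxidises caffeine and aromatic amines and is, with Cyp1a1, a classic target of the aryl hydrocarbon receptor. Its signal ran from 11.66 over a median of 12.60 to 13.06 in ChREBPtotal_KO and from 9.79 over 11.30 to 11.41 in ChREBPtotal_WT. In the ChREBPβ line it ran from 11.001 over 11.65 to 12.15 in the deficient mice and from 11.25 over 11.48 to 12.12 in their littermates. All 7 total ChREBP-KO arrays lay above all 8 of their littermates, while the ChREBPβ groups overlapped. The difference was 1.5 (SE 0.21, adjusted p = 2.01e-06), a 2.84-fold rise, with total deficiency and 0.07 (SE 0.20, adjusted p = 1) with ChREBPβ deficiency. Cyp1a1 also rose with total deficiency, by 0.43 (SE 0.15, adjusted p = 0.0313), with overlapping groups. The probes of the pair lie 0.0235 Mb apart on chromosome 9. Cyp1b1, mostly active outside the liver, differed by 0.02 (SE 0.18, adjusted p = 0.944).

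In subfamily 2a, Cyp2a5 is the mouse coumarin hydroxylase and Cyp2a4 a steroid hydroxylase that is more active in females. Cyp2a5 ran from 17.30 over a median of 17.62 to 17.94 in ChREBPtotal_KO and from 15.54 over 16.10 to 16.52 in ChREBPtotal_WT. In ChREBPbeta_KO it ran from 15.97 over 16.72 to 16.93 and in ChREBPbeta_WT from 15.66 over 16.19 to 17.05. The lowest total ChREBP-KO array was thus above every other array of the study for this probe. Total deficiency raised it by 1.68 (SE 0.20, adjusted p = 1.06e-07), or 3.2-fold.

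The Cyp2a4 probe, which lists transcripts of Cyp2a5 as well, followed the same order. It ran from 16.59 over a median of 16.88 to 17.25 in ChREBPtotal_KO and from 14.55 over 15.10 to 15.66 in ChREBPtotal_WT, and from 15.09 over 15.80 to 15.99 in ChREBPbeta_KO and from 14.62 over 15.27 to 16.31 in ChREBPbeta_WT. No total ChREBP-KO array overlapped any other group. The rise was 1.86 (SE 0.21, adjusted p = 5.65e-08), or 3.63-fold. Cyp2a22 ran from 12.97 over 13.26 to 13.63 in ChREBPtotal_KO, from 11.64 over 11.96 to 12.36 in ChREBPtotal_WT, from 12.23 over 12.48 to 12.71 in ChREBPbeta_KO and from 12.00 over 12.30 to 12.63 in ChREBPbeta_WT. Again the total ChREBP-KO arrays stood above the 3 other groups. Its rise of 1.35 (SE 0.12, adjusted p = 9.13e-10) had the lowest adjusted p of all members, and Cyp2a12, which hydroxylates bile acids, rose by 0.43 (SE 0.08, adjusted p = 9.49e-05) with overlapping groups. With ChREBPβ deficiency the 4 probes differed by 0.12 to 0.30, and none was called.

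Cyp2b10 is the standard target of CAR in mouse liver and is nearly silent without an inducer. Its signal ran from 6.18 over a median of 9.60 to 11.02 in ChREBPtotal_KO and from 5.12 over 5.87 to 7.40 in ChREBPtotal_WT. In the ChREBPβ line it ran from 6.31 over 7.27 to 9.71 in the deficient mice and from 5.31 over 6.05 to 10.78 in their littermates. The spread within each deficient group was wide, 6 of 7 total ChREBP-KO arrays, all but replicate 7, lay above all their littermates, and 1 ChREBPβ littermate, replicate 2, was as bright as the total ChREBP-KO arrays. The difference was 3.21 (SE 0.69, adjusted p = 0.00067), or 9.27-fold, with total deficiency and 1.0 (SE 0.67, adjusted p = 1) with ChREBPβ deficiency. The difference between these effects, 2.22 (SE 0.97, adjusted p = 0.125), was not called. Leaving out any 1 array gave 2.94 to 3.75 with total deficiency, the latter without ChREBPtotal_KO replicate 7.

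Of the other 2b genes, the Cyp2b9 probe, whose gene is more active in females and which also lists Cyp2b10, rose by 3.62 (SE 0.67, adjusted p = 0.000102) with total deficiency and differed by 1.29 (SE 0.64, adjusted p = 0.989) with ChREBPβ deficiency. Cyp2b13 was not well above background on any of the 8 ChREBPtotal_WT arrays and passed on 6 of 7 ChREBPtotal_KO arrays. The filter kept it through ChREBPtotal_KO alone, so it is among the 35 higher probes only because the group where it was high let it in. Set against the lowest detected signal of each littermate array, it was at least 1.95-fold higher with total deficiency (adjusted p = 0.000439). Cyp2b19 was well above background on 1 of 7 ChREBPtotal_KO arrays and 3 of 8 of their littermates and was not called (adjusted p = 0.909). The probes of Cyp2b10 and Cyp2b9 are printed because they carry the largest changes among the members.
Cyp2b10: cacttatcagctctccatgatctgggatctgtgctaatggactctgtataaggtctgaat
Cyp2b9: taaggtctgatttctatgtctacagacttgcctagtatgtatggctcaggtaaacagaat

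Cyp2g1, best known from the olfactory epithelium, lies in the same cluster. Its signal ran from 6.65 over a median of 8.08 to 8.82 in ChREBPtotal_KO and from 5.21 over 5.86 to 6.53 in ChREBPtotal_WT. In ChREBPbeta_KO it ran from 5.74 over 6.44 to 7.22 and in ChREBPbeta_WT from 5.20 over 6.38 to 7.28. The total ChREBP-KO arrays did not overlap their littermates but overlapped both ChREBPβ groups. Total deficiency raised it by 1.85 (SE 0.31, adjusted p = 2.8e-05), or 3.62-fold. The probe passed the detection flags on 7 of 7 arrays of that group and on 6 of 8 arrays in each of the 3 other groups.

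Many 2c enzymes turn arachidonic acid into epoxides. Cyp2c29, one of these epoxygenases, ran from 15.86 over a median of 16.30 to 16.45 in ChREBPtotal_KO, from 15.75 over 16.11 to 16.30 in ChREBPtotal_WT, from 15.59 over 15.94 to 16.14 in ChREBPbeta_KO and from 15.57 over 15.76 to 16.04 in ChREBPbeta_WT. The groups of each line overlapped, and neither deficiency was called, at 0.13 (SE 0.09, adjusted p = 0.294) and 0.12 (SE 0.09, adjusted p = 1). Cyp2c44, also an epoxygenase, ran from 14.66 over 14.73 to 14.92 in ChREBPtotal_KO and from 13.69 over 13.92 to 14.27 in ChREBPtotal_WT. In the ChREBPβ line it ran from 14.46 over 14.53 to 14.62 in the deficient mice and from 14.04 over 14.49 to 14.79 in their littermates. The total ChREBP-KO arrays lay above all their littermates, and overlapped the ChREBPβ littermates. The rise was 0.76 (SE 0.09, adjusted p = 1.6e-07), and a further Cyp2c44 probe gave 0.86 (SE 0.11, adjusted p = 9.57e-07).

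The neighbouring genes Cyp2c37, Cyp2c50 and Cyp2c54 rose by 0.44, 0.47 and 0.53 with total deficiency, and Cyp2c70, which makes the muricholic acids of mouse bile, by 0.44. The Cyp2c37 probe lists transcripts of Cyp2c50 as well, so the rises of Cyp2c37 and Cyp2c50 may share signal. The probes of Cyp2c50 gave 0.47 (SE 0.15) and 1.51 (SE 0.24), both called. Against this, Cyp2c67 fell by 0.37 (SE 0.10, adjusted p = 0.00778), Cyp2c69 by 0.30 (SE 0.10, adjusted p = 0.0209) and the pseudogene Cyp2c53-ps by 0.58 (SE 0.22, adjusted p = 0.048). Cyp2c67 ran from 14.51 over a median of 14.80 to 15.24 in ChREBPtotal_KO and from 14.78 over 15.23 to 15.52 in ChREBPtotal_WT, and from 15.40 over 15.65 to 15.73 in ChREBPbeta_KO and from 15.31 over 15.57 to 15.93 in ChREBPbeta_WT. The total ChREBP-KO arrays overlapped their littermates, and 3 of 7 lay below all of them. Cyp2c68 and Cyp2c40, at -0.20 and -0.19, were not called. These copies can share labelled RNA: 55 of 59 aligned bases are the same in the probes of Cyp2c67 and Cyp2c68, printed with their mismatches in capitals, and the Cyp2c69 probe lists transcripts of Cyp2c40, Cyp2c67 and Cyp2c68 too.
Cyp2c67: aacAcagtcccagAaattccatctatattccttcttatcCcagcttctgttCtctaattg
Cyp2c68: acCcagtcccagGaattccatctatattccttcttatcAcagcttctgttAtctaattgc

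In subfamily 2d, Cyp2d40 was the 1 member gene that fell without overlap. It ran from 13.53 over a median of 14.02 to 14.29 in ChREBPtotal_KO and from 14.31 over 15.52 to 15.77 in ChREBPtotal_WT. In ChREBPbeta_KO it ran from 14.63 over 15.17 to 15.50 and in ChREBPbeta_WT from 14.19 over 15.34 to 15.63. All 7 total ChREBP-KO arrays were below their littermates, the gap being set by replicate 2 of the littermates, while 1 ChREBPβ littermate, also numbered 2, lay inside their range. The gene fell by 1.44 (SE 0.19, adjusted p = 5.68e-07) with total deficiency and differed by -0.08 (SE 0.18, adjusted p = 1) with ChREBPβ deficiency. A dimmer Cyp2d40 probe was called lower as well (adjusted p = 9.11e-06), but it was well above background on 1 of 7 ChREBPtotal_KO arrays, against all 8 of their littermates, so no size is given. The brighter of the Cyp2d40 probes is printed, as it carries this fall.
Cyp2d40: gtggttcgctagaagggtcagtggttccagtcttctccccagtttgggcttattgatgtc

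Cyp2d9, a steroid hydroxylase that is more active in males, ran from 13.70 over a median of 14.31 to 14.58 in ChREBPtotal_KO, from 13.27 over 14.41 to 14.65 in ChREBPtotal_WT, from 13.39 over 14.45 to 14.84 in ChREBPbeta_KO and from 13.66 over 14.32 to 14.86 in ChREBPbeta_WT. All groups overlapped, and the differences of -0.02 (SE 0.20, adjusted p = 0.949) and 0.06 (SE 0.19, adjusted p = 1) were not called. Small rises with total deficiency were called for Cyp2d10 (0.18), Cyp2d12 (0.26), Cyp2d13 (0.41 by its brighter probe) and Cyp2d26 (0.33 by its brighter probe). For Cyp2d26 all 7 ChREBPtotal_KO arrays lay above all their littermates on that probe. The dimmer Cyp2d13 probe, called at 0.46, was well above background on 5 of 7 ChREBPtotal_KO arrays and 4 of 8 of their littermates. The further Cyp2d26 probe, at 0.19, was not called.

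Cyp2e1 oxidises ethanol and acetaminophen around the central vein. Its signal ran from 18.05 over a median of 18.30 to 18.37 in ChREBPtotal_KO and from 17.27 over 17.58 to 17.72 in ChREBPtotal_WT. In the ChREBPβ line it ran from 17.83 over 18.01 to 18.10 in the deficient mice and from 17.69 over 17.85 to 18.02 in their littermates. The total ChREBP-KO arrays lay above all their littermates, and 3 of 8 ChREBPβ-deficient arrays lay above theirs. Total deficiency raised it by 0.69 (SE 0.06, adjusted p = 1.06e-09), or 1.62-fold, and the other Cyp2e1 probe by 1.03 (SE 0.10, adjusted p = 1.18e-09). With ChREBPβ deficiency the difference was 0.14 (SE 0.06, adjusted p = 0.989).

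The 2j enzymes also make fatty acid epoxides. Cyp2j5 ran from 14.07 over a median of 14.34 to 14.63 in ChREBPtotal_KO, from 14.35 over 14.46 to 14.64 in ChREBPtotal_WT, from 14.51 over 14.71 to 14.81 in ChREBPbeta_KO and from 14.46 over 14.63 to 14.81 in ChREBPbeta_WT. The groups overlapped in both lines, and this probe was not called at -0.13 (SE 0.07, adjusted p = 0.158), while the dimmer Cyp2j5 probe fell by 0.29 (SE 0.06, adjusted p = 0.000413). Cyp2j6 ran from 10.27 over 10.45 to 11.08 in ChREBPtotal_KO and from 9.998 over 10.06 to 10.24 in ChREBPtotal_WT, and from 10.02 over 10.17 to 10.49 in ChREBPbeta_KO and from 9.86 over 10.28 to 10.51 in ChREBPbeta_WT. All 7 total ChREBP-KO arrays lay just above their littermates. It rose by 0.44 (SE 0.09, adjusted p = 0.000467), but the other Cyp2j6 probe, at 0.17 (SE 0.09, adjusted p = 0.183), was not called. Neither Cyp2j8, Cyp2j9 nor Cyp2j13 was called with either deficiency.

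Cyp3a11 is the main drug-oxidising 3a enzyme of mouse liver and a standard target of PXR. Its signal ran from 14.87 over a median of 15.64 to 16.08 in ChREBPtotal_KO and from 14.58 over 14.74 to 15.06 in ChREBPtotal_WT. In the ChREBPβ line it ran from 14.79 over 15.00 to 15.47 in the deficient mice and from 14.43 over 14.85 to 15.67 in their littermates. Of the 7 total ChREBP-KO arrays, all but replicate 7 lay above all their littermates. Its rise of 0.75 (SE 0.16, adjusted p = 0.000791), or 1.68-fold, was close in size to those of the other 3a probes, which ran from 0.57 for Cyp3a13 to 0.76 for Cyp3a57. The probes named for Cyp3a16, Cyp3a41a and Cyp3a59 rose by 0.69, 0.58 and 0.72. The Cyp3a11 probe lists transcripts of Cyp3a41a, Cyp3a41b and Cyp3a44 as well, so their values may share signal. The Cyp3a16 and Cyp3a11 probes were both highest on ChREBPtotal_KO replicate 4 (15.21 and 16.09) and lowest on ChREBPbeta_WT replicate 6 (13.60 and 14.43). Whether the Cyp3a16 probe reads its own gene was not tested.

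Among the remaining letters, Cyp2r1, a vitamin D hydroxylase, rose by 0.14 and Cyp2w1 by 0.21 with total deficiency. Cyp2f2, which oxidises naphthalene and in liver marks the portal side, differed by -0.20 (SE 0.11, adjusted p = 0.174). Cyp2u1, a hydroxylase of long fatty acids, was called by 1 of 3 probes, at 0.37, which was well above background on 4 of 7 ChREBPtotal_KO arrays and 7 of 8 of their littermates. Over all members, 12 genes had more than 1 probe in the table, and for 8 of them the probes gave the same verdict with total deficiency.

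**Figure D2:**
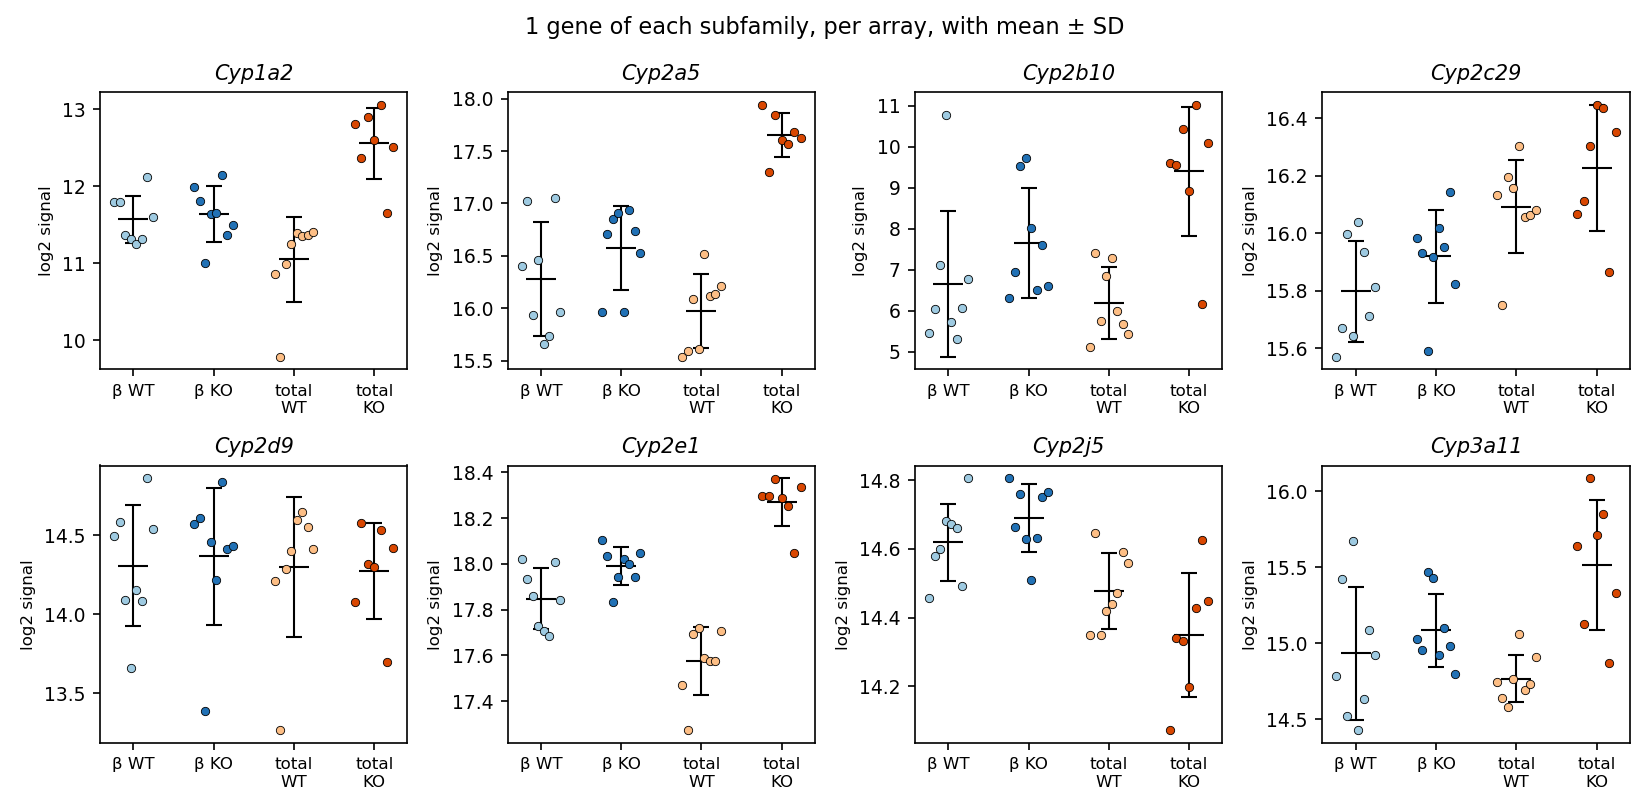
Log2 signal of 1 gene of each subfamily on each of the 31 arrays, with 1 point per array and bars for the mean ± SD of the 8 arrays (7 in ChREBPtotal_KO) of each group. The total ChREBP-KO points of Cyp1a2, Cyp2a5 and Cyp2e1 lie above all points of their WT littermates, and those of Cyp2c29, Cyp2d9 and Cyp2j5 overlap them.

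Within each scan day the rise was counted again, a setting chosen after the data were seen. On scan day 1, 25 member probes were higher and 3 lower with total deficiency, where 7.63% of all probes were higher and 8.47% lower. On scan day 2, with 3 total ChREBP-KO arrays, 17 were higher and 4 lower, where 6% of all probes were higher and 7.2% lower. Cyp3a11 was not called on day 2 alone (0.50), Cyp2j6 not on day 1 alone (0.44), and Cyp3a25, Cyp3a57 and Cyp2c67 on neither day alone. The direction of Cyp3a25, Cyp3a57 and Cyp2c67 was the same on each day as over all arrays. Cyp2c67 was also not called by the exact Mann-Whitney test. With a fold change of at least 1.5 demanded as well, 18 probes were higher and 2 lower, against 2.71% and 3.36% of all probes.

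ChREBPβ deficiency alone called no P450 probe. Limma gave 0 of 69 higher and 0 lower, against 0% and 0.00277% of all probes, the latter being the 1 Mlxipl probe. At an unadjusted p below 0.05 there were 6 members higher and 1 lower, where 2.53% of all probes were higher and 2.45% lower, and the exact Mann-Whitney test with the same adjustment called 0. The filter kept Cyp2b19 (0.15) through ChREBPbeta_KO alone, so it is among these 6 only because the group where it was high let it in. Cyp2b13 (0.44), also among them, was well above background on 5 of 8 ChREBPbeta_KO arrays and 2 of 8 of their littermates. The lowest adjusted p of a member was 0.989. Differences ran from -0.17 for Cyp2u1 to 1.29 for Cyp2b9, with a median of 0.05 against -0.00 over all probes. A p that misses the threshold does not show that these genes did not differ.

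The deficiencies were then compared directly, as the effect of total deficiency minus the effect of ChREBPβ deficiency. By this test 16 of 69 probes were higher and 3 lower, where 7.02% of all probes were higher and 8.08% lower. The effect was larger with total deficiency for Cyp2g1 by 1.75 (SE 0.43, adjusted p = 0.00497), for Cyp2a4 by 1.58 (SE 0.29, adjusted p = 0.000301), for Cyp1a2 by 1.43 (SE 0.29, adjusted p = 0.000837), for Cyp2a5 by 1.38 (SE 0.27, adjusted p = 0.000634) and for Cyp2a22 by 1.18 (SE 0.17, adjusted p = 1.11e-05). For Cyp2d40 it was -1.37 (SE 0.26, adjusted p = 0.000388). Smaller differences were called for Cyp2c44 (0.70), Cyp2e1 (0.55), Cyp2j6 (0.49) and, by its brighter probe, Cyp2d26 (0.24, adjusted p = 0.00224). By a dimmer probe alone they were called for Cyp2c50 (1.16, adjusted p = 0.0146), Cyp2u1 (0.54) and Cyp2d13 (0.38). In the other direction the dimmer Cyp2j5 probe was called (-0.39, adjusted p = 0.00118), and the brighter one was not (-0.20).

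For the rest of the P450 genes that rose with total deficiency, a larger effect than with ChREBPβ deficiency was called only in part. No 2b probe was called by this test, and in 3a it was 2 of 7, Cyp3a13 at 0.69 (SE 0.21, adjusted p = 0.0211) and Cyp3a59 at 0.62 (SE 0.19, adjusted p = 0.0248). The value for Cyp3a11 was 0.60 (SE 0.23, adjusted p = 0.0759). On scan day 1 alone 10 members were higher and 1 lower by this test, against 1.63% and 2.58% of all probes, and on scan day 2 alone 4 and 1, against 2.08% and 3.44%. The calls of Cyp1a2 (0.93), Cyp2a4 (0.95), Cyp2a5 (0.87), Cyp2g1 (0.83) and Cyp2c44 (0.39) were lost on day 2 alone, and those of Cyp2d40 (-1.11) and Cyp2j6 (0.29) on day 1 alone, the latter also with slide as a fixed block (0.52).

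The WT littermates of the lines also differed from each other. Comparing ChREBPtotal_WT with ChREBPbeta_WT, 2 of 69 member probes were higher and 16 lower, where 8.12% of all probes were higher and 8.92% lower. Counted with 1 probe a gene, 2 of 56 genes were higher and 14 lower, against 7.8% and 9.38% of all named genes. The median difference of the members was -0.16, against 0.01 over all probes, and the medians of the 7 subfamilies other than 2b ran from -0.13 in 2c to -0.32 in 2e and were negative under each other choice of signal, scaling and filter as well. The littermate groups enter both the deficiency comparisons and this one, so a rise with total deficiency and a low value in its littermates share the same arrays.

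Cyp2c38, an epoxygenase gene next to Cyp2c29, had the largest WT difference. It ran from 14.31 over a median of 14.82 to 15.34 in ChREBPtotal_WT and from 13.53 over 13.70 to 13.998 in ChREBPbeta_WT. The deficient mice of each line stood with their own littermates, from 14.46 over 14.86 to 15.17 in ChREBPtotal_KO and from 13.40 over 13.95 to 14.32 in ChREBPbeta_KO. All 8 arrays of the total line's littermates lay above all 8 of the other line's. The difference was 1.1 (SE 0.12, adjusted p = 2.87e-07), or 2.14-fold, while the deficiencies gave 0.02 (SE 0.12, adjusted p = 0.944) and 0.18 (SE 0.12, adjusted p = 1). Cyp2c29 was higher in the total line's littermates by 0.29 (SE 0.09, adjusted p = 0.0193), with 7 of 8 arrays above all ChREBPbeta_WT arrays. The Cyp2c38 probe is printed because it carries the largest difference between the lines.
Cyp2c38: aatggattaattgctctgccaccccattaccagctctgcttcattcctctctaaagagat

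In 3a, Cyp3a57 and Cyp3a25 were lower in the littermates of the total line. Cyp3a57 ran from 12.56 over a median of 12.90 to 13.47 in ChREBPtotal_WT, from 13.13 over 14.01 to 14.47 in ChREBPbeta_WT, from 13.28 over 13.74 to 13.96 in ChREBPtotal_KO and from 13.24 over 14.11 to 14.53 in ChREBPbeta_KO. Of the 8 littermates of the total line, 7 lay below all those of the ChREBPβ line. The difference was -1.06 (SE 0.19, adjusted p = 0.000255), beside a rise of 0.76 (SE 0.20, adjusted p = 0.00404) with total deficiency. Cyp3a25 ran from 13.17 over 13.46 to 14.02 in ChREBPtotal_WT, from 13.70 over 14.52 to 15.02 in ChREBPbeta_WT, from 13.90 over 14.26 to 14.45 in ChREBPtotal_KO and from 13.93 over 14.72 to 15.18 in ChREBPbeta_KO. Again 7 of 8 littermates of the total line lay below all those of the ChREBPβ line. The values were -1.02 (SE 0.18, adjusted p = 0.000201) between the WT groups and 0.71 (SE 0.19, adjusted p = 0.00391) with total deficiency.

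The probes of Cyp3a25 and Cyp3a57 share 49 of 52 aligned bases, with the mismatches in capitals, so part of each signal may come from the other gene. Their probes lie on opposite strands, at chr5:146789175-146789234 and chr5:146151322-146151381 in mm9.
Cyp3a25: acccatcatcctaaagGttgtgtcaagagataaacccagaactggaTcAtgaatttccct
Cyp3a57: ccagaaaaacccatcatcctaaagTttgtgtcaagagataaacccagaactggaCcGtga

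Further members lower in the littermates of the total line included Cyp2j9, which ran from 8.23 over a median of 8.93 to 9.09 in ChREBPtotal_WT and from 8.80 over 9.36 to 9.64 in ChREBPbeta_WT. Both deficient groups overlapped their littermates, at 8.60 over 8.93 to 9.10 in ChREBPtotal_KO and 8.93 over 9.41 to 9.64 in ChREBPbeta_KO. The WT groups overlapped, and the difference was -0.54 (SE 0.13, adjusted p = 0.00308), with the probe passing the detection flags on 5 of 8 and 7 of 8 arrays. The filter kept this probe through ChREBPbeta_WT alone, the higher group of this comparison. Cyp2c44 differed by -0.48 (SE 0.09, adjusted p = 0.000301), Cyp2c67 by -0.40 (SE 0.10, adjusted p = 0.0066) and Cyp2e1 by -0.27 (SE 0.06, adjusted p = 0.00259). With slide as a fixed block, 1 member was higher and 3 lower, against 2.3% and 3.52% of all probes. In that fit Cyp2c29 (0.32), Cyp2e1 (-0.27), Cyp2c67 (-0.28), Cyp3a57 (-0.88) and Cyp3a25 (-0.86) kept their direction but were not called. On scan day 1 alone 1 was higher and 9 lower, against 2.87% and 3.48% of all probes, and on scan day 2 alone 1 and 4, against 1.63% and 2.57%. Cyp2c29 and Cyp2e1 were called on neither day, Cyp2e1 not with 75th-percentile scaling of the median signal (-0.21), Cyp2c67 not on day 1, and Cyp2c44 and Cyp2j9 not on day 2.

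**Figure D3:**
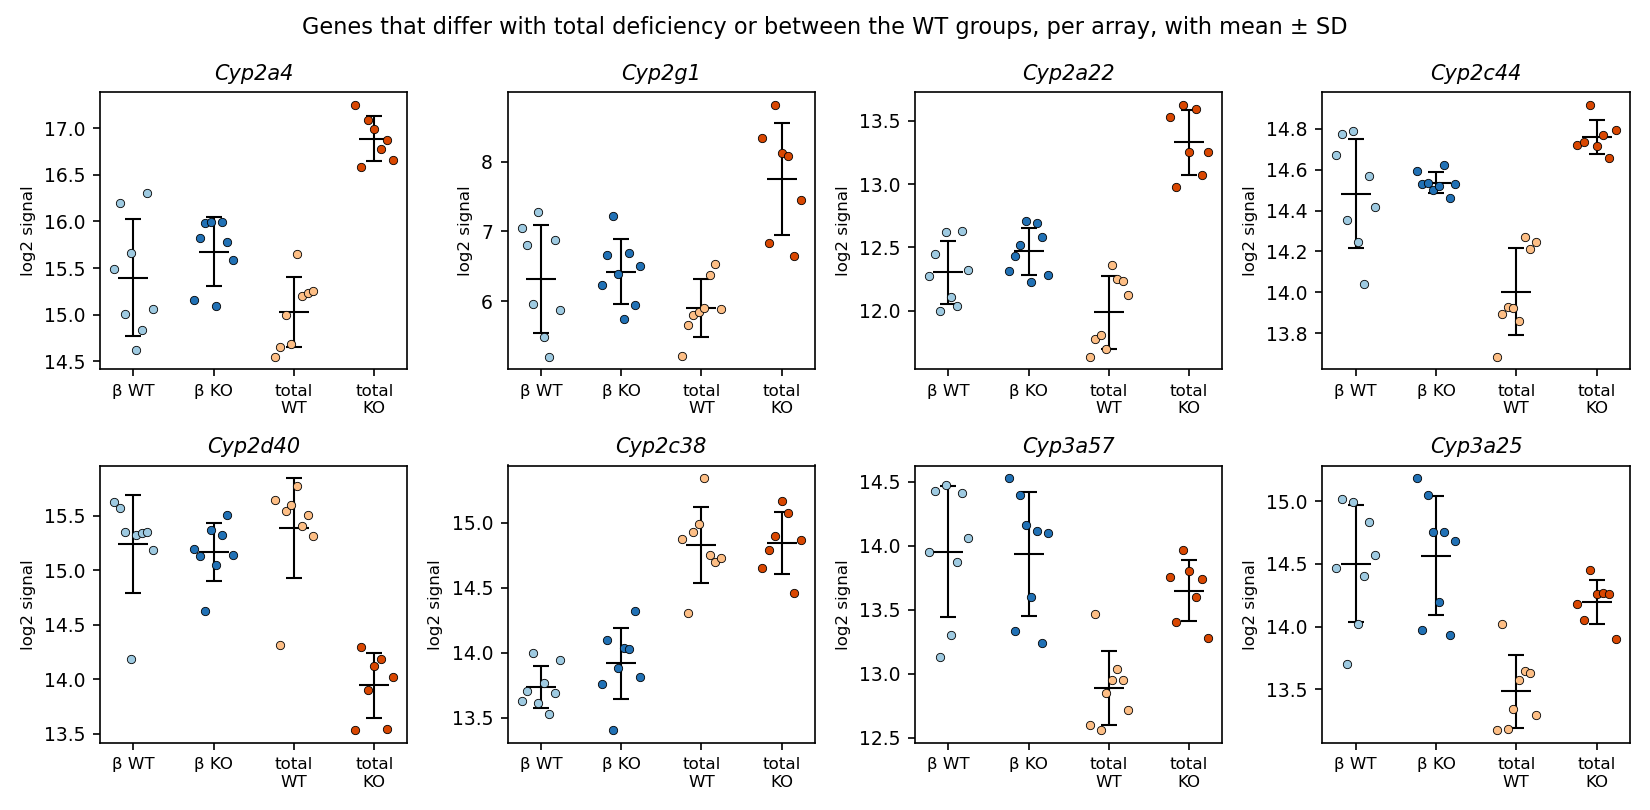
Log2 signal of 8 genes on each of the 31 arrays, with 1 point per array and bars for the mean ± SD of each group. Cyp2a4, Cyp2a22 and Cyp2d40 set total ChREBP-KO apart from its littermates, Cyp2c38 is higher in both groups of the total line apart from 1 littermate array at 14.31, just under the highest ChREBPbeta_KO array at 14.32, and Cyp3a57 and Cyp3a25 are lowest in the WT littermates of the total line.

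The members share positions as well as sequence. In mm9 the probes of 2a span chr7:27099880-27821829 and those of 2b chr7:26711522-27557604, overlapping clusters that also hold Cyp2g1, while those of 2d span chr15:82201687-82621829, of 2j chr4:95709356-96295971 and of 1a chr9:57528060-57551594. The 2c probes span chr19:39110063-44088190, with Cyp2c44 at the far end. On chromosome 5 the 3a probes reach from 138335412 to 146920697, and the nearest of them, for Cyp3a13, lies 2.72 Mb from the Mlxipl probes. Within the 2d cluster genes were called in both directions with total deficiency, as Cyp2d26 (0.33) and Cyp2d40 (-1.44) were.

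RefSeq promoters of 300 bases (GRCm38.p6), 250 before and 50 after the start of the gene, were found for 46 of the 56 genes. The E-box CACGTG was present in 1 (2.17%), against 8.09% of the promoters of all 27025 genes in that table. The nuclear receptor hexamer AGGTCA was present on either strand in 15 (32.6%), against 18.1%, and the aryl hydrocarbon receptor core GCGTG in 8 (17.4%), against 35.2%. The search covered both strands, and no motif lies inside another. Some copies lie after the start: within the 250 bases before it, AGGTCA was present in 12 (26.1%), against 15.8% of all genes. There it was held by 7 of the 25 genes higher with total deficiency and by 5 of the 18 not called. A match describes letters in this window and shows no binding.

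The single E-box lay in the promoter of Cyp2j6, chr4:96553602-96553901 on the minus strand in GRCm38.p6, printed with the motif in capitals.
Cyp2j6: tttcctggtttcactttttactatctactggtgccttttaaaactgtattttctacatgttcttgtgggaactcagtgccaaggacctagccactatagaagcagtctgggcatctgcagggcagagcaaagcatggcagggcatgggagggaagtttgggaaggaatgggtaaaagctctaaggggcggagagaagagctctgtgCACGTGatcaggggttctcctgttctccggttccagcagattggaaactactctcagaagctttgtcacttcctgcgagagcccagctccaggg
Cyp3a25, Cyp3a57 and Cyp3a59 hold 2 copies of AGGTCA each, 1 on each strand. Cyp3a59 was called with total deficiency but not between the WT groups, at -0.35 (SE 0.13, adjusted p = 0.0638). The Cyp3a25 probe lists transcripts of Cyp3a59 as well, and a difference between these genes was not tested. The promoters of Cyp3a25 and Cyp3a57, which were called in both comparisons, are printed with these letters in capitals, from chr5:146009568-146009867 on the minus strand and chr5:145345019-145345318 on the plus strand in GRCm38.p6.
Cyp3a25: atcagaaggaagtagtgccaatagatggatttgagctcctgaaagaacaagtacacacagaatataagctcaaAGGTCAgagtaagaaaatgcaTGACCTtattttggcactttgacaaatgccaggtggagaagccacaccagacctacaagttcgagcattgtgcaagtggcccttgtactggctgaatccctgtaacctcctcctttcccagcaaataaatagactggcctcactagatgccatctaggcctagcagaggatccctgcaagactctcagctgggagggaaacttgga
Cyp3a57: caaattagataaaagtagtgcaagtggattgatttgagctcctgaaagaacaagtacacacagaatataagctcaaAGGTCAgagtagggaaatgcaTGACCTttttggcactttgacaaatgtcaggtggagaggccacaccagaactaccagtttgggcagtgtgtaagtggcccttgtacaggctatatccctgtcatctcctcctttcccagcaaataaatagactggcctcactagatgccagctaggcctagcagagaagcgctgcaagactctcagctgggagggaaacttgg

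Of 26 listed regulators of P450 genes, all measured, 7 were higher (26.9%) and 4 lower (15.4%) with total deficiency, against 14.5% and 14.8% of all named genes. Their median was 0.17, against 0.01 over all genes. Ahr rose by 1.24 (SE 0.15, adjusted p = 1.94e-07) and Nr1i3, which encodes CAR, by 1.17 (SE 0.16, adjusted p = 1.05e-06), while Nr1i2, which encodes PXR and was picked out after its value was seen, differed by 0.02 and was not called. The clock output factors Dbp and Tef rose by 3.19 (SE 0.99, adjusted p = 0.0143) and 1.21 (SE 0.41, adjusted p = 0.0262), and the fatty acid receptor gene Ppara by 0.69. Stat5b, which carries growth hormone signals, fell by 0.45 (SE 0.08, adjusted p = 8.99e-05), Cebpb by 0.46 and Nr1h4 by 0.30. No listed regulator was called with ChREBPβ deficiency. For the difference between the deficiencies 4 regulators were higher (15.4%) and 3 lower (11.5%), against 7.11% and 8.27% of all named genes. Among the higher were Ahr (1.29, adjusted p = 5.66e-05) and Nr1i3 (0.98, adjusted p = 0.00224). In the WT comparison 4 regulators were higher (15.4%) and 1 lower (3.85%), against 7.8% and 9.38% of all named genes, with Cebpb at 0.97 and Ppara at -0.69.

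A list of 18 genes covered electron transfer and heme synthesis and also held Ephx1, Ephx2, Hmox1 and Pgrmc1. Of the 18, 8 were higher (44.4%) and 4 lower (22.2%) with total deficiency, against 14.5% and 14.8% of all named genes. Their median was 0.20, against 0.01 over all genes. With ChREBPβ deficiency 0 were called. Between the WT groups 0 were higher and 3 lower (16.7%, against 7.8% and 9.38% of all named genes), Fdx1 (-0.27), Fdxr (-0.25, well above background on 5 of 8 and 7 of 8 arrays) and Cyb5a (-0.23), at a median of -0.07 against 0.01. Por, the P450 oxidoreductase, rose by 0.81 (SE 0.20, adjusted p = 0.00244) and Cyb5a, the cytochrome b5 of the endoplasmic reticulum, by 0.40 (SE 0.07, adjusted p = 5.6e-05), while Cyb5r3, the cytochrome b5 reductase, fell by 0.28 (SE 0.05, adjusted p = 0.000107). Fdx1, the mitochondrial ferredoxin, rose by 0.25. Among the heme synthesis genes, Alad (0.36), Cpox (0.33) and Fech (0.26) were higher and Uros (-0.63) and Ppox (-0.22) lower. Alas1, the first step of the pathway, was picked out after its value was seen, and at 0.54 was not called.

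Other targets of the same receptors were counted from lists without P450 genes. Of 25 measured targets of CAR and PXR, 9 were higher (36%) and 1 lower (4%) with total deficiency, against 14.5% and 14.8% of all named genes, at a median of 0.36 against 0.01. The transporter genes Abcc3 and Slco1a4 rose by 1.20 (SE 0.14, adjusted p = 4.9e-08) and 1.12 (SE 0.26, adjusted p = 0.00131), and Thrsp, a lipogenic gene of that list and a known ChREBP target, fell by 4.63 (SE 0.33, adjusted p = 1.07e-11). Of 8 measured genes of the aryl hydrocarbon receptor battery, 2 were higher (25%) and 2 lower (25%), at a median of -0.01: Nqo1 (0.50) and Lgals3 (0.76) rose, and Tiparp (-1.48) and Exoc3 (-0.59) fell, Exoc3 with 5 of 7 and 6 of 8 arrays well above background. With ChREBPβ deficiency 0 genes of either list were called. Between the WT groups, 5 targets of CAR and PXR were higher and 5 lower (20% each), and of the battery 1 and 1 (12.5% each), against 7.8% and 9.38% of all named genes.

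Lists of zonated and sex-biased liver genes, again without P450 families 1 to 3, were read the same way. With total deficiency 15 of 27 pericentral genes were higher (55.6%) and 0 lower, against 14.5% and 14.8% of all named genes, with Slc1a2 at 1.29 and Sp5 at 0.98, whereas the pericentral marker Glul, picked out after its value was seen, differed by 0.03 and was not called. Of 25 measured periportal genes 4 were higher (16%) and 6 lower (24%), with the glucose-producing genes G6pc at -4.79 and Fbp1 at -1.42. Of 24 measured genes biased to females 13 were higher (54.2%) and 1 lower (4.17%), with Vldlr at 1.68 and Raet1e at 1.62 (well above background on 5 of 8 littermate arrays), and of 24 biased to males 4 were higher and 4 lower (16.7% each), with Susd4 at 1.14 and Elovl3 at -1.41. Their medians were 0.37, -0.04, 0.44 and 0.08, against 0.01 over all genes. No gene of these lists was called with ChREBPβ deficiency. In the WT comparison the pericentral list had 3 higher and 2 lower, the periportal 1 and 1, the female-biased 3 and 8 and the male-biased 1 and 0, which is 11.1% and 7.41%, 4% and 4%, 12.5% and 33.3%, and 4.17% and 0% of the lists. Of all named genes 7.8% were higher and 9.38% lower. Of the lists, 4 pericentral, 4 CAR and PXR, 3 female-biased and 3 regulator genes stand in another list as well.

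Markers of other cell types were summed on the linear scale beside these results, and each sum is given as its lowest, median and highest array. A sum on this scale is weighted to its brightest genes. For some lists it is mostly 1 gene, given here with its mean log2 signal. These are lymphocytes (Cd4, 13.98), exocrine pancreas (Cela1, 14.28), adipocytes (Car3, 17.03), stellate cells (Dcn, 14.27) and cholangiocytes (Spp1, 11.94). Such a sum says little about the other markers of its list. With total deficiency no marker of Kupffer cells (10 measured), liver endothelium (10) or lymphocytes (9, Cd8a not measured) was called, where 14.5% of all named genes were higher and 14.8% lower. The Kupffer cell sum, with Cd5l the brightest gene, ran from 14640 over 16708 to 21827 in ChREBPtotal_KO and from 12132 over 17407 to 24237 in ChREBPtotal_WT. For endothelium, with Clec4g the brightest, it ran from 15387 over 18601 to 19510 in ChREBPtotal_KO and from 14505 over 18178 to 19764 in ChREBPtotal_WT. For lymphocytes, with Cd4 the brightest, it ran from 14799 over 17370 to 25288 in ChREBPtotal_KO and from 14946 over 16240 to 20818 in ChREBPtotal_WT. These ranges overlapped.

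Of 10 stellate cell markers 2 were higher with total deficiency, Reln (0.80) and Dcn (0.40), the latter the brightest of the list. Their sum ran from 23908 over 28850 to 55634 in ChREBPtotal_KO and from 19078 over 26333 to 28434 in ChREBPtotal_WT. Of 9 cholangiocyte markers 1 was higher, Epcam (0.97), with Spp1 the brightest, and the sum ran from 3930 over 5167 to 13002 in ChREBPtotal_KO and from 3491 over 4620 to 6513 in ChREBPtotal_WT. In adipocytes 1 of 9 was higher, Car3 (0.79), the brightest and a gene that hepatocytes express as well, with Adipoq not measured. That sum ran from 159627 over 171067 to 206468 in ChREBPtotal_KO and from 80415 over 108369 to 137612 in ChREBPtotal_WT, without overlap.

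Of 9 exocrine pancreas markers 0 were higher and 4 lower (44.4%, against 14.8% of all named genes), Cela3b (-1.45), Cel (-0.80), Ctrb1 (-0.77) and Ctrl (-0.51). Cela3b and Cel were well above background on 5 of 7 ChREBPtotal_KO arrays each and on 6 of 8 and 7 of 8 of their littermates, and Ctrl on 7 of 7 and 5 of 8. The sum, with Cela1 the brightest, ran from 15003 over 28465 to 36151 in ChREBPtotal_KO and from 18344 over 26452 to 37659 in ChREBPtotal_WT, with overlap. The median difference of the 9 markers was -0.51, and 1 of them was above 0, so the sum, mostly Cela1, does not show their fall. Not measured were Prss2, Try4, Try5, Cpa1, Cpb1, Pnlip and Pnliprp1. Of 6 red blood cell markers 1 was higher, Alas2 (0.34), and the sum, with Hba-a1 the brightest, ran from 188389 over 260286 to 388767 in ChREBPtotal_KO and from 233287 over 263276 to 337618 in ChREBPtotal_WT. Hbb-bs and Ahsp were among those not measured. The part of these cells in the P450 results was not tested.

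Between the WT groups, 4 of 6 measured red blood cell markers were higher in ChREBPtotal_WT than in ChREBPbeta_WT and 0 lower, where 7.8% of all named genes were higher and 9.38% lower. They were led by Hba-a1 at 1.05 (SE 0.16, adjusted p = 2.72e-05), and the sum ran from 92919 over 132764 to 195043 in ChREBPbeta_WT, below every ChREBPtotal_WT array. Of 9 exocrine pancreas markers 4 were higher, led by Cela2a at 2.13 with 7 of 8 and 4 of 8 arrays well above background, and the sum ran from 12691 over 22039 to 26126 in ChREBPbeta_WT. Adipocyte markers had 0 higher and 2 lower, Cidec (-2.03) and Lipe (-0.84), and the sum ran from 90720 over 132081 to 176995 in ChREBPbeta_WT. Endothelial markers had 2 higher and 0 lower, Tek (0.36) and Pecam1 (0.21), and the sum ran from 13844 over 17314 to 18530 in ChREBPbeta_WT. Cidec was well above background on 7 of 8 arrays and Pecam1 on 5 of 8 in each WT group. No marker of the other lists was called. Whether these cells had a part in the WT differences of the P450 genes was not tested.

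With ChREBPβ deficiency limma called 0 markers of any of these lists. In ChREBPbeta_KO the sums had medians of 163087 for red blood cells, 26035 for pancreas, 163185 for adipocytes and 17347 for endothelium, each inside the range of its littermates. For stellate cells the sum ran from 25328 over 28098 to 30733 in ChREBPbeta_KO and from 22366 over 25967 to 27566 in ChREBPbeta_WT. The medians of the remaining lists in ChREBPbeta_KO and ChREBPbeta_WT were 5468 and 5502 for cholangiocytes, 16667 and 18176 for Kupffer cells and 18145 and 16892 for lymphocytes.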

How the data were processed

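Scanner output of 31 one-colour arrays was used, 1 array per liver, made with Agilent Feature Extraction 10.10.1.1 according to the submitters' processing notes. The authors deposited these spot values as linear intensity, with no normalisation, and deposited in addition a table of log2 values of 36057 probes, which per their methods they filtered, quantile normalised and summarised by the median of spots with the same probe name. Those steps were repeated here from the median signal: a spot was kept when the scanner marked it as found, as positive and significant and as well above background, either on 26 arrays or more or on 6 or more of at least 1 group, log2 values were quantile normalised with ties averaged, and repeated probes were replaced by their median, which gave 36059 probes. The first run did not average ties and was replaced after its counts had been seen. Values correlated with the deposited table at 0.999995.

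Differences were tested with limma 3.58.1 in R 4.3.3 (data.table, version 1.17.8), with the 4 groups in 1 model and no covariate, and Benjamini-Hochberg adjustment over all probes at 0.05. The fit was tested on simulated data. Tables and figures were made with Python 3.11.15, numpy 2.4.6, pandas 2.3.3 and matplotlib 3.10.9. Probe coordinates are those of the scanner files (mm9), and promoters are from RefSeq (GRCm38.p6). For a probe with no array above background in a group, a fold is a lower bound against the lowest detected signal per array.

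Where a gene needed 1 value, the probe with the highest mean over the 31 arrays was used. Genes given in full were 1 textbook gene per subfamily, up to 8 in each direction called with total deficiency without overlap, up to 10 called with ChREBPβ deficiency (0 were), and up to 5 in each direction for the difference between deficiencies and between WT groups, which gave 19. Other members are named with their difference. Gene lists covered P450 regulators, electron partners and heme genes, aryl hydrocarbon receptor battery, CAR and PXR targets, male-biased, female-biased, pericentral and periportal liver genes, P450 genes of other families, and markers of 9 cell types. The members and lists were chosen with earlier results of these data known.

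Alternatives covered signal, scaling, background correction (normexp, offset 50), filter, the deposited values, outlier flags, slide and scan day as blocks, replicate number as a block, separate fits, the moderation, an exact Mann-Whitney test, a fold of at least 1.5, genes in place of probes and each array left out. Scan days apart and 3 arrays left out together were added after the data were seen. The number of arrays limits the precision. Single values of some list genes are not reported here.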

Additional observations from a re-analysis of the deposited data

Results flagged for a closer look

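Signals far from the rest of their group were found in 9 of 80 groups of arrays examined, for the 19 genes given in full and Mlxipl, and chance alone flags about 1 in 20. Of the 9, 7 were on arrays numbered 2. In ChREBPtotal_WT, replicate 2 had a Cyp1a2 signal of 9.79, with the next at 10.86, a Cyp2c29 signal of 15.75, with the next at 16.06, a Cyp2d9 signal of 13.27, with the next at 14.21, and a Cyp2d40 signal of 14.31, with the next at 15.31. In ChREBPbeta_WT, replicate 2 had a Cyp2b10 signal of 10.78, with the next at 7.12, and a Cyp2d40 signal of 14.19, with the next at 15.19. Cyp2d9 was at 13.39 in ChREBPbeta_KO replicate 2, with the next at 14.22. Cyp2e1 was at 18.05 in ChREBPtotal_KO replicate 7, with the next at 18.25, and Cyp2j6 at 9.86 in ChREBPbeta_WT replicate 5, with the next at 10.22. Members not given in full were not examined by this rule, and some are named here after their values were seen. ChREBPtotal_KO replicate 5 stood at 9.43 for Cyp2c65 and 8.92 for Cyp2c66, where the group medians were 5.21 and 5.17. Neither gene was called with total deficiency, and the Cyp2c66 probe lists Cyp2c65 as well. Cyp2s1 was highest in that group on replicates 6 (9.74) and 5 (8.80). Why any of these arrays stand apart was not tested.

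Effects that differed between total and ChREBPβ deficiency, by limma's test of the difference, were found for 9 P450 genes given in full and for Mlxipl. They were 1.75 for Cyp2g1 (adjusted p = 0.00497), 1.58 for Cyp2a4 (0.000301), 1.43 for Cyp1a2 (0.000837), 1.38 for Cyp2a5 (0.000634), 1.18 for Cyp2a22 (1.11e-05), 0.70 for Cyp2c44 (0.000205), 0.55 for Cyp2e1 (5.17e-05) and 0.49 for Cyp2j6 (0.00882). The values were -1.37 for Cyp2d40 (adjusted p = 0.000388) and -0.70 for Mlxipl (1.11e-05).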

How the results depend on the processing

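The counts of member probes kept within 1.5 times under most settings, and no called difference of a gene given in full changed direction under the settings run. Calls were lost, beside those on a single scan day, for Cyp2c67 with total deficiency by the exact Mann-Whitney test (-0.37), for Cyp2j6 in the difference between the deficiencies with slide as a fixed block (0.52), and between the WT groups for Cyp2e1 with 75th-percentile scaling of the median signal (-0.21) and for Cyp2c29, Cyp2e1, Cyp2c67, Cyp3a57 and Cyp3a25 with slide as a fixed block. A fold of at least 1.5 by its own construction ends the calls of Cyp2j6 and Cyp2c67 with total deficiency, of Cyp2e1 and Cyp2j6 for the difference, and of Cyp2c29, Cyp2c44, Cyp2c67, Cyp2e1 and Cyp2j9 between the WT groups. With total deficiency (35 higher, 6 lower), scan day 2 alone gave 17 higher, a fold of at least 1.5 gave 18 higher and 2 lower, the exact Mann-Whitney test 3 lower (11.6% of all probes) and scan day 1 alone 3 lower. The difference between the deficiencies (16 higher, 3 lower) gave 10 higher and 1 lower on scan day 1 alone, 4 and 1 on scan day 2 alone, 5 lower with the 3 arrays numbered 2 left out together, and 1 lower with genes in place of probes (8.27% of all named genes). Between the WT groups (2 higher, 16 lower), slide as a fixed block gave 1 higher and 3 lower, scan day 1 alone 1 and 9, scan day 2 alone 1 and 4, and a fold of at least 1.5 gave 1 and 2 (0.948% and 1.59% of all probes). Fewer arrays enter each scan day, and otherwise the cause was not tested. The settings by scan day and with 3 arrays left out were chosen after seeing the data.

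Leaving out each of the 31 arrays in turn gave 28 to 37 higher and 4 to 8 lower with total deficiency, 0 to 0 in both directions with ChREBPβ deficiency, 16 to 23 higher and 3 to 5 lower for the difference, and 2 to 3 higher and 14 to 19 lower between the WT groups. Over all probes the shares higher and lower were 12.7% to 14.6% and 13.2% to 14.7% with total deficiency, 0% to 0.00277% and 0% to 0.00555% with ChREBPβ deficiency, 6.1% to 7.54% and 7.29% to 8.7% for the difference, and 5.87% to 8.99% and 7.01% to 9.53% between the WT groups. The count of 5 lower for the difference came without ChREBPtotal_WT replicate 2. No call of a gene given in full was lost in these fits.

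Deviations of arrays with the same replicate number correlated above 0.1 in 6 of 8 pairs of the ChREBPβ line and 2 of 7 of the total line, from -0.215 to 0.533. Not every pair did so, and the pairing was not used. With the replicate block 34 members were higher and 6 lower with total deficiency, 0 and 0 with ChREBPβ deficiency, and 22 higher and 3 lower for the difference. In the same fit 13.8% of all probes were higher and 13.9% lower with total deficiency, 0% and 0% with ChREBPβ deficiency, and 6.93% and 8.02% for the difference.

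Signal over background limits the dim members: 12 of 69 probes passed on fewer than 26 arrays, and 49 passed on all 31 arrays, where 27 were higher and 5 lower with total deficiency, against 17.9% and 17.4% of the 19620 probes that passed on all arrays.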
